A study of Schizosaccharomyces pombe with 6 samples.

Results

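RNA recovered with the helicase subunit Mtl1 was compared with RNA recovered with the zinc-finger subunits Red1 and Red5 of the same nuclear complex, MTREC, in fission yeast (Schizosaccharomyces pombe). The 2 Mtl1-FTP arrays were set against the 4 Red1-FTP and Red5-FTP arrays, 2 of each, which together are the 6 of 6 arrays of the series. The arrays were assigned by bait label and by no measured value. It asks which RNAs the helicase recovered apart from the other subunits.

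In each strain the bait carried FTP at its C terminus, a tandem affinity tag in which a TEV protease site joins Flag and protein A. The Red1-FTP strain (P919) and the Mtl1-FTP strain (P920) are h90, carry ade6-M210, and have natNT2 as the marker of the tagged gene. The Red5-FTP strain (P1160) is h+ and carries ade6-216. All 3 strains carry leu1-32 and ura4D18 and grew in rich medium (YEA) with no treatment, and each bait was studied in 1 strain. RNA that co-purified with the bait (IP, Cy5) was hybridized against the strain's own total RNA (input, Cy3). A log2 ratio above 0 thus stands for RNA enriched in the purification relative to the median probe of that array. An untagged strain was not analysed here and Cy5 was always the IP, so RNA retained by the beads and a dye effect of a probe are part of each ratio. A difference between baits sets purifications made in the same way against each other.

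MTREC hands cryptic unstable transcripts, meiotic mRNAs and pre-mRNAs that were not spliced over to the exosome of the nucleus, which degrades RNA from its 3′ end. Mtl1 is a DExH-box RNA helicase related to Mtr4, the helicase of the TRAMP complex, and such helicases unwind RNA for the exosome. Red1 forms the core of MTREC with Mtl1 and connects it to the exosome, and Red5 forms a submodule with the RNA-binding proteins Pab2 and Rmn1. Mtl1 is also found outside MTREC, in a complex with Nrl1 and Ctr1 that associates with splicing factors.

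Values are means over windows of 10 consecutive probes of 1 strand, 14700 in all, in the densely tiled section of the array, which in the study's array description covers chromosome 2 and the start of chromosome 3. Odd and even probe numbers are opposite strands. No probe was placed on the genome or tied to a gene here, so a window or run is named by its first probe and no transcript can be named. Of 174063 tile probes, 47.1 to 57.5% were well above background in the input of an array and 55.3 to 67.3% in its IP, and 0 were saturated. Replicates of a bait differed by a median SD per window of 0.27 for Red1-FTP, 0.20 for Mtl1-FTP and 0.24 for Red5-FTP in log2. Slide 1 carried the first replicate of each bait and slide 2 the second of Red1-FTP and of Red5-FTP, while the second Mtl1-FTP array was alone on slide 3. Values called slide 1 below are differences between replicates 1 only, and limma's p-values measure the spread between these arrays.

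Few windows separated Mtl1-FTP from the other baits, and those that passed the test were all higher with Mtl1-FTP. In limma with Benjamini-Hochberg adjustment, 7 windows (0.0476%) were higher with Mtl1-FTP at an adjusted p under 0.05 and 0 were lower. At an unadjusted p under 0.05, 539 windows (3.67%) were higher and 390 (2.65%) lower. The difference, Mtl1-FTP minus the mean of the other 2 baits, had a median of -0.05 and an SD of 0.34 over all windows, and exceeded 1 in log2 in 97 windows and fell under -1 in 53. Set against each bait on its own, 6 windows (0.0408%) were higher and 0 lower than with Red1-FTP, and 6 (0.0408%) were higher and 1 (0.0068%) lower than with Red5-FTP. Unadjusted, 363 windows (2.47%) were higher and 497 (3.38%) lower at p under 0.05 for Red1-FTP, and 564 (3.84%) and 415 (2.82%) for Red5-FTP. Both of these comparisons use the same Mtl1-FTP arrays.

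**Figure D1:**
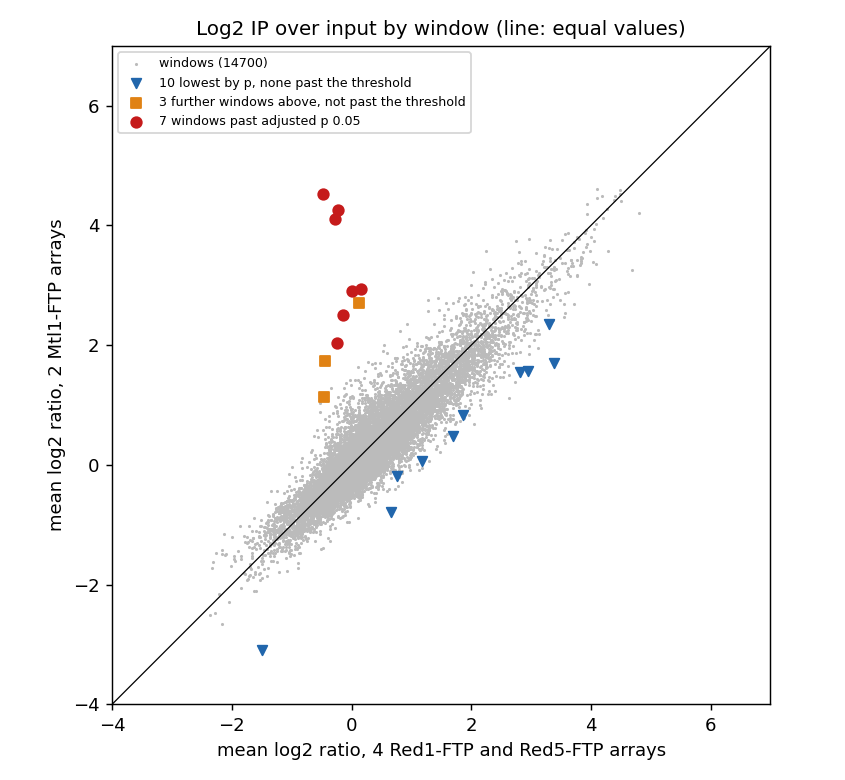
Each grey point is 1 of 14700 windows, with the mean log2 ratio of IP over input on the 4 Red1-FTP and Red5-FTP arrays on the x axis and that on the 2 Mtl1-FTP arrays on the y axis. The 7 windows past the threshold (red) have means of 2.03 to 4.53 with Mtl1-FTP and of -0.48 to 0.16 with the other baits, while the 10 windows named for lower values (blue) lie close to the edge of the cloud.

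Of the 7 windows, 5 adjoined on the odd-numbered strand and formed a run of 50 probes, and 1 was on the other strand of the same place. The first Mtl1-FTP array had a mean log2 ratio of 3.52 over the 50 probes and the second 3.81. It was -0.47 and 0.02 with Red1-FTP and -0.56 and 0.11 with Red5-FTP. The groups did not overlap, and the RNA stood near or below the array median with both zinc-finger proteins. The means were 3.66 ± 0.21 (SD, n = 2) for Mtl1-FTP and -0.23 ± 0.34 (SD, n = 4) for the others, a difference of 3.89, or 14.8-fold, which was 4.03 within slide 1. The calls in this locus need both Mtl1-FTP arrays: with either left out the differences of the 6 windows were 2.44 to 5.35 and their limma adjusted p 0.0941 to 0.213.

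The run was strongest in its middle. At sp40c_82781 the log2 ratios were 4.14 and 4.38 with Mtl1-FTP, -0.75 and 0.27 with Red1-FTP, and -0.64 and 0.19 with Red5-FTP, a difference of 4.49 (SE 0.35, limma adjusted p = 0.00504). At sp40c_82801 the Mtl1-FTP arrays gave 4.05 and 4.15, against -0.59 and -0.04 with Red1-FTP and -0.68 and 0.22 with Red5-FTP. The difference there was 4.37 (SE 0.31, limma adjusted p = 0.00504). These adjoining windows thus differed by about the same amount, and on each of them the lower Mtl1-FTP array lay at least 3.83 above the highest other array. The highest window of the run was sp40c_82821, at 4.20 and 4.87 with Mtl1-FTP, -0.63 and -0.02 with Red1-FTP, and -1.26 and -0.03 with Red5-FTP (difference 5.02, SE 0.38, limma adjusted p = 0.00504).

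Both outer windows of the run were lower but passed as well. At sp40c_82761 the values were 2.90 and 2.92 with Mtl1-FTP, -0.24 and 0.24 with Red1-FTP, and -0.20 and 0.25 with Red5-FTP, a difference of 2.90 (SE 0.25, limma adjusted p = 0.00532). At sp40c_82841 they were 2.28 and 2.73 with Mtl1-FTP and between -0.32 and -0.01 on the other arrays, a difference of 2.66 (SE 0.23, limma adjusted p = 0.00532). The edges were unequal. On the low-number side the rise was abrupt: the first probe to exceed all other arrays by over 1 was sp40c_82767, at 3.41 and 3.62 with Mtl1-FTP against 0.31 to 0.64, and the window before the run, sp40c_82741, differed by only 0.10 (limma adjusted p = 0.98). On the high-number side the difference fell in steps, to 1.11 in the window after the run, sp40c_82861 (limma adjusted p = 0.391), and to -0.13 in the next, sp40c_82881 (limma adjusted p = 0.971).

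Within the run the signal was carried by nearly every probe. Of the 50 probes, 48 were above all 4 other arrays on both Mtl1-FTP arrays and 42 were so by over 1 in log2. Over all tile probes 8.13% lay above all others, 6.27% below, and 0.561% above by over 1. The probe highest with Mtl1-FTP, sp40c_82845, lay near the high-number end, at 4.34 and 5.80 against -0.80 to 0.08. The log2 ratio exceeded 1 on both Mtl1-FTP arrays in 47 of the 50 probes, and on any other array in 3. An unbroken stretch of 37 probes from sp40c_82767 to sp40c_82839 lay over 1 above all others, the longest such stretch on the array, with a mean of 4.22 for Mtl1-FTP and -0.26 for the others. None of the 174036 single probes tested passed on its own in limma, higher or lower, against 5973 (3.43%) higher and 5801 (3.33%) lower at an unadjusted p under 0.05.

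**Figure D2:**
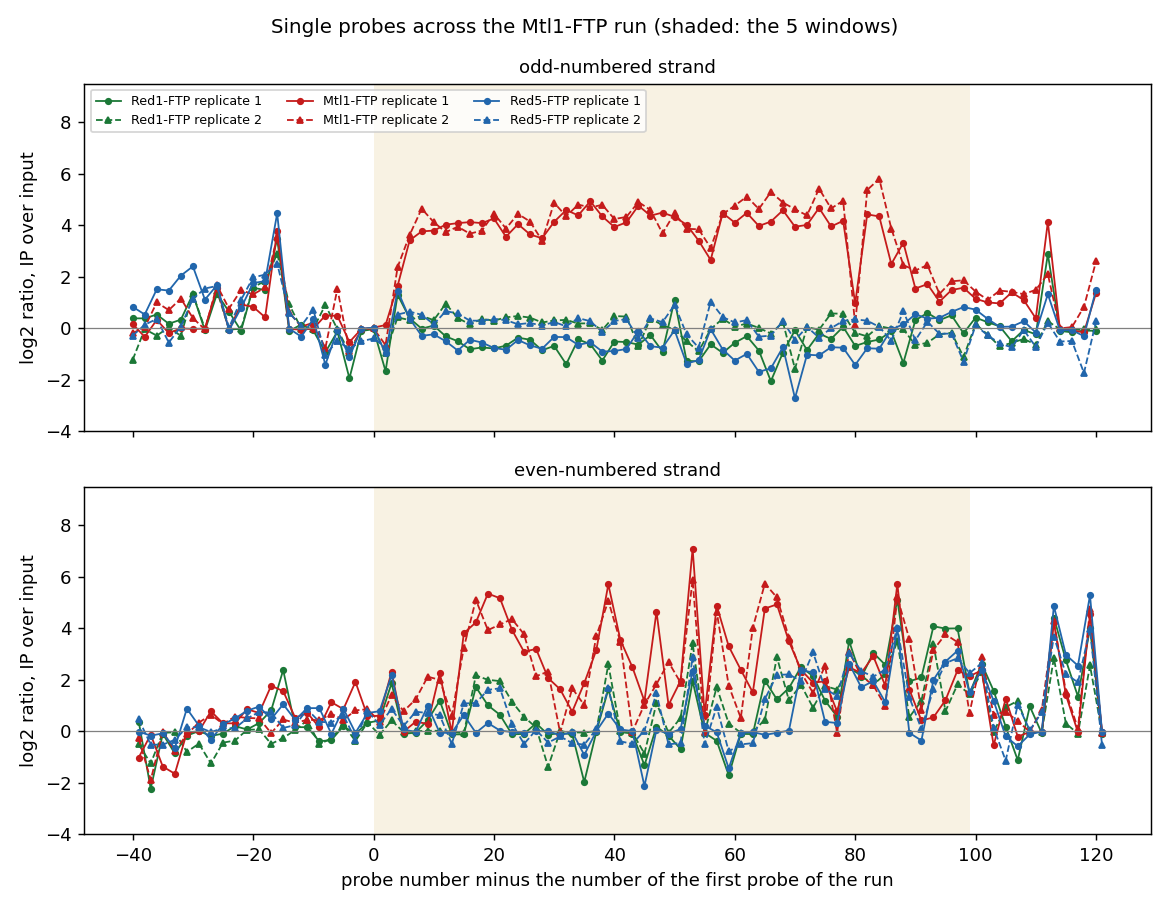
Log2 ratio of IP over input (y axis) of single probes against probe number, counted from the first probe of the run (x axis), with a line per array and the odd-numbered strand above the even-numbered one. On the odd strand both Mtl1-FTP arrays (red) rise near the start of the shaded 50 probes and stay above the other 4 arrays through nearly all of them. On the even strand the Mtl1-FTP arrays stand apart mainly in the middle of the shaded region, and all arrays are high towards its end.

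Both channels were also compared on their own, each as log2 signal relative to its array median. Over the 50 probes the IP signal was 4.35 and 4.49 with Mtl1-FTP, 0.22 and 0.98 with Red1-FTP, and 0.43 and 1.23 with Red5-FTP, a difference of 3.70. The input signal was 1.45 and 0.98 in the Mtl1-FTP strain, 1.39 and 1.67 in the Red1-FTP strain and 1.47 and 1.68 in the Red5-FTP strain, a difference of -0.33. The RNA was thus above the array median in the total RNA of all 3 strains, lowest on the second Mtl1-FTP array. In the 5 windows the IP differences were 2.53 to 4.81 (limma adjusted p = 0.00306 to 0.0076), and the input differences were -0.47 to -0.22 (limma adjusted p = 0.342 to 0.649).

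The strand opposite to the run was higher with Mtl1-FTP over part of its length. The window sp40c_82782 had log2 ratios of 3.06 and 2.81 with Mtl1-FTP, 0.00 and 0.49 with Red1-FTP, and -0.05 and 0.17 with Red5-FTP, a difference of 2.78 (SE 0.24, limma adjusted p = 0.00532). Its input was well above background in 1 of 20 spots of the Mtl1-FTP arrays and 0 of 40 spots of the others, so there is no measured input level behind these ratios. Its IP was well above background in 15 of 20 Mtl1-FTP spots and 5 of 40 others. Of the 10 probes, 8 were not well above background in the IP on any Red1-FTP or Red5-FTP array. The 2 probes dim in the IP with every bait were left out. A probe dim with the other baits thus counted only where Mtl1-FTP detected it. Over the 8 probes kept, the IP signal was at least 3.66-fold higher with Mtl1-FTP, a bound that does not cover the whole window. Each dim probe was counted at its own value or at the lowest signal well above background on its array, whichever was higher.

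The next opposite window, sp40c_82802, stood at 3.08 and 2.32 with Mtl1-FTP and between -0.23 and 0.61 on the other arrays, a difference of 2.57 that missed the threshold (SE 0.32, limma adjusted p = 0.0626). Its IP signal differed (limma adjusted p = 0.00666). Counted in the same way, it was at least 4.67-fold higher over 8 probes, again without the 2 that were dim with every bait. Further along, at sp40c_82822, all baits were enriched, with 2.66 and 2.85 for Mtl1-FTP and 0.77 to 1.58 for the others (difference 1.47, limma adjusted p = 0.224). At sp40c_82842 the baits did not separate: Mtl1-FTP gave 2.10 and 2.56, within the range of 1.78 to 3.04 of the others (difference 0.11, SE 0.35). Opposite to the first window of the run, sp40c_82762 gave 1.92 and 2.08 with Mtl1-FTP and 0.44 to 0.67 otherwise (difference 1.45, limma adjusted p = 0.149). The probe highest with Mtl1-FTP on this strand, sp40c_82814, stood at 7.10 and 5.89, and was enriched with the other baits too, at 1.95 to 3.43. A run of 8 even-numbered probes from sp40c_82776 lay over 1 above all other arrays, at 3.86 and 3.63 with Mtl1-FTP, 0.40 and 0.81 with Red1-FTP, and 0.11 and 0.61 with Red5-FTP.

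The seventh window, sp40c_125942, lay elsewhere and stood alone. Its log2 ratios were 1.90 and 2.17 with Mtl1-FTP, -0.52 and -0.18 with Red1-FTP, and -0.45 and 0.18 with Red5-FTP, a difference of 2.27 (SE 0.26, limma adjusted p = 0.0429). Set against each bait on its own the difference was 2.38 from Red1-FTP (limma adjusted p = 0.0885) and 2.16 from Red5-FTP (limma adjusted p = 0.0979). The same-strand windows on either side, sp40c_125922 and sp40c_125962, each differed by 0.30, and the opposite window sp40c_125941 by -0.13. The IP signal was 1.66 and 1.94 with Mtl1-FTP and between -1.06 and 0.07 otherwise, while the input differed by -0.08. This call was lost without Red5-FTP replicate 1 (limma adjusted p = 0.0762) and without either Mtl1-FTP array (limma adjusted p = 0.511 and 1).

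The remaining windows named as highest did not pass in the main fit but did in some alternatives. With the slide as a random block, which called 9 windows, sp40c_132701 (limma adjusted p = 0.0177) and sp40c_82802 (limma adjusted p = 0.021) passed. Both passed with normexp background correction as well (limma adjusted p = 0.00118 and 0.0237). With probes dim in the input left out, sp40c_132701 and sp40c_37661 passed (limma adjusted p = 0.0197 and 0.0376). At sp40c_132701 both Mtl1-FTP arrays stood at 1.73, against -0.74 and 0.00 with Red1-FTP and -0.73 and -0.31 with Red5-FTP (difference 2.17, SE 0.27, limma adjusted p = 0.0626). Its opposite window, sp40c_132702, had a mean of 0.98 with Mtl1-FTP and values of -0.45 to -0.12 otherwise, and the next window on its own strand, sp40c_132721, differed by 0.29. At sp40c_37661 the Mtl1-FTP arrays gave 1.19 and 1.08 and the others -0.61 to -0.32 (difference 1.59, SE 0.22, limma adjusted p = 0.104). None of the 4 other arrays exceeded 0 in either sp40c_132701 or sp40c_37661.

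**Figure D3:**
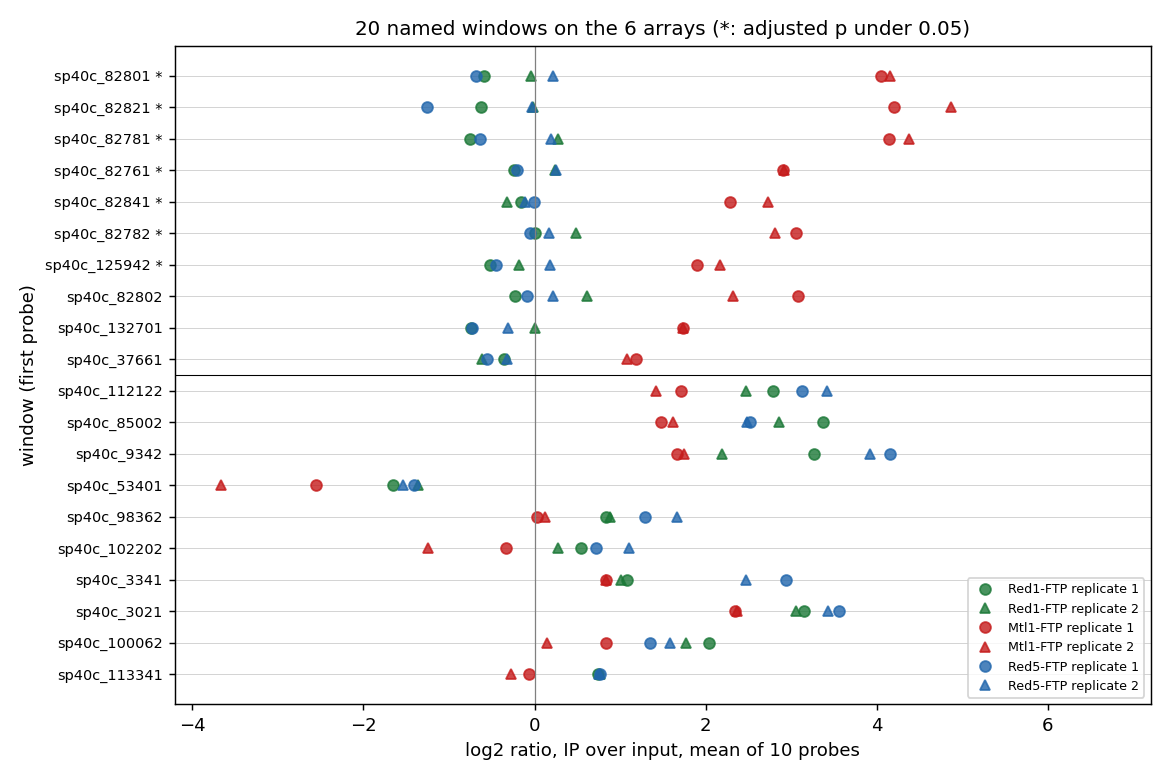
Log2 ratio of IP over input (x axis) of the 20 named windows (y axis, by first probe), with a point per array, coloured by bait and shaped by replicate number. In the upper 10 windows both Mtl1-FTP arrays (red) lie to the right of all others, and in the lower 10 to the left; the 7 windows with an asterisk passed the threshold.

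Beyond single calls, the groups were separated by counting windows whose arrays did not overlap. Both Mtl1-FTP arrays lay above all 4 others in 1161 windows (7.9%) and below them in 1038 (7.06%). Were all arrays alike, each of these orders would arise in 1 of 15 windows on average, and both shares lie near that. The balance rested on single arrays: with only Mtl1-FTP replicate 2 in place of both the counts were 2027 above and 4019 below, with only replicate 1 they were 2576 and 1796, and without Red5-FTP replicate 1 or Red1-FTP replicate 2 they were 1462 and 1995, and 1715 and 1992. With probes dim in the input left out they were 527 and 399. They lay above by over 1 in log2 in 29 windows (0.197%) and below by over 1 in 0 (18 with signals before dye normalization, 15 without Mtl1-FTP replicate 1). Of these 29, 9 were in the run or opposite to it and 20 lay elsewhere, with differences of 1.10 to 2.27. In 19 of the 29 the mean of the other baits was below 0, and in 4 it exceeded 0.5. Over all windows the mean of the other baits was below 0 in 37.2%, and choosing windows for low values of these baits lowers that mean by itself. The IP was higher with Mtl1-FTP in 29 of 29 (differences of at least 0.79), and the input difference was -0.66 to 0.40 and passed in 0. Within slide 1 the smallest difference was 1.03, but the choice of windows above by over 1 sets it above 1 beforehand. As the IP is the numerator of the ratio, this choice also favours a higher IP.

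Short runs were also counted. Runs of at least 5 same-strand probes that lay over 1 above all other arrays numbered 9, and runs as far below numbered 0. Leaving out Mtl1-FTP replicate 1 turned these counts into 27 and 6 and leaving out its replicate 2 into 15 and 0, and runs below numbered 4 without Red1-FTP replicate 2 and 3 without the first Red5-FTP array. The longest run below had 4 probes, from sp40c_14527, at -0.14 and -0.56 with Mtl1-FTP and 1.05 to 2.34 otherwise. Counting every probe, 977 (0.561%) lay over 1 above all others and 333 (0.191%) over 1 below. Of the 9 runs, 7 lay outside the locus described above, with 5 to 9 probes each.

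The largest difference in the ratio among these 7 was in a run of 5 odd-numbered probes from sp40c_27637, at 2.86 and 4.01 with Mtl1-FTP, 0.34 and 0.29 with Red1-FTP, and 0.31 and 0.71 with Red5-FTP. Its input was well above background in 4 of 30 spots, so this ratio rests on a dim input. Its IP was well above background in 9 of 10 Mtl1-FTP spots and 4 of 20 others. The IP signal was at least 4.74-fold higher, against 5.89-fold in the run from sp40c_132711 described below. A run of 9 probes from sp40c_116734 was the longest, at 2.59 and 2.71 with Mtl1-FTP, 0.25 and 0.47 with Red1-FTP, and 0.13 and 0.12 with Red5-FTP. Its input was similar across strains, at 2.43 and 2.27 with Mtl1-FTP and 1.99 to 3.03 otherwise. This run straddled 2 windows, and with windows shifted by 5 probes, an alternative chosen after the values were seen, sp40c_116732 differed by 2.29 (SE 0.21, limma adjusted p = 0.0093).

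In the run of 6 probes from sp40c_132711, which starts inside the window named above, Mtl1-FTP gave 2.04 and 2.08 and the others -1.02 to -0.23. In the run of 7 probes from sp40c_37661 it gave 1.56 and 1.55 against -0.50 to -0.29. Both RNAs were depleted relative to the array median on all 4 other arrays. The run of 5 probes from sp40c_68299 stood at 1.64 and 1.94 with Mtl1-FTP and at -0.75 to -0.10 otherwise. The 2 remaining runs were of 5 probes from sp40c_93688 (1.99 and 2.06 against -0.23 to 0.27) and of 7 probes from sp40c_36601 (1.70 and 2.11 against 0.00 to 0.35). The input difference was -0.58 to -0.08 in the 7 runs other than those from sp40c_27637 and sp40c_82776, where few input spots rose above background (4 of 30 and 6 of 48). Within slide 1 the difference in the ratio was at least 1.36 in all 9 runs. It could not have been under 1, since every probe was chosen for lying over 1 above all other arrays.

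**Figure D4:**
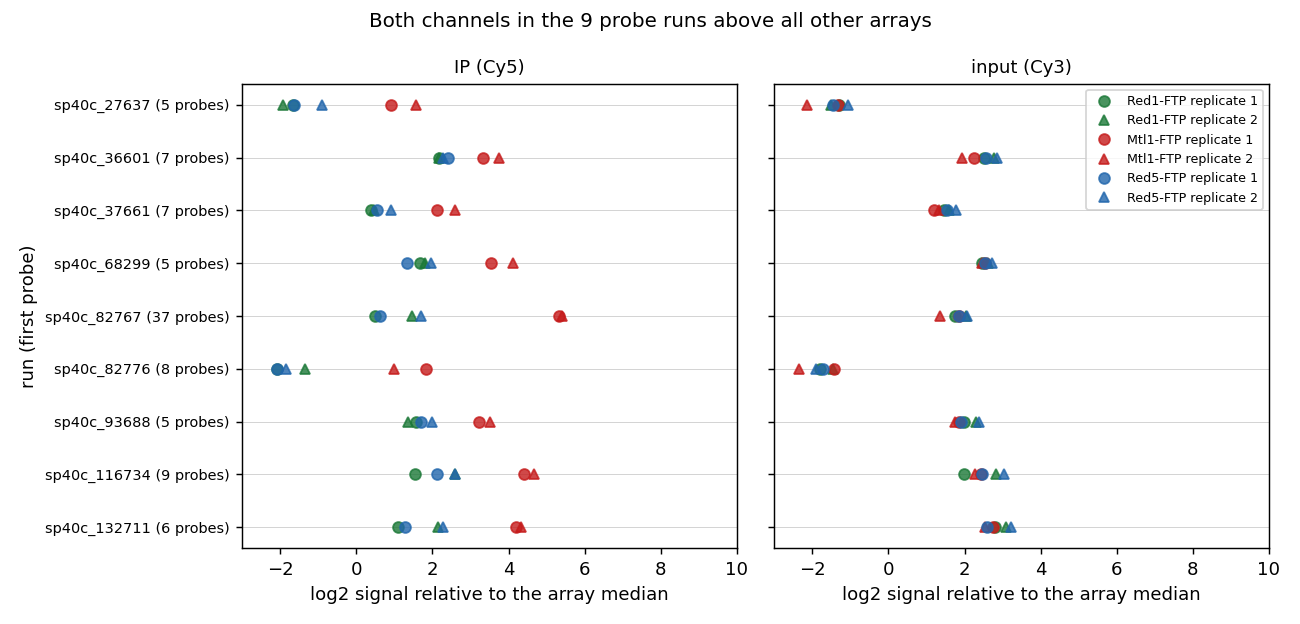
Log2 signal relative to the array median (x axis) of the IP channel (left) and the input channel (right) in the 9 probe runs (y axis, by first probe), with a point per array. The Mtl1-FTP arrays (red) lie to the right of all others in the IP of each run, whereas the input points of the 3 strains lie close together or overlap.

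None of the 10 windows named for lower values with Mtl1-FTP passed (limma adjusted p = 0.172 to 0.339). The mean of the other baits was over 0.5 in 9 of them and the Mtl1-FTP mean was above 0 in 7, a description that the choice of windows below all others in part sets. At sp40c_112122, the lowest by p, the values were 1.71 and 1.42 with Mtl1-FTP, 2.79 and 2.47 with Red1-FTP, and 3.13 and 3.42 with Red5-FTP (difference -1.39, SE 0.23, limma adjusted p = 0.172). At sp40c_85002 they were 1.48 and 1.62, 3.37 and 2.86, and 2.52 and 2.48 in the same order (difference -1.26, SE 0.23, limma adjusted p = 0.224).

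In several of the 10 the other baits themselves stood apart. At sp40c_9342 Mtl1-FTP gave 1.67 and 1.75, Red1-FTP 3.27 and 2.19, and Red5-FTP 4.16 and 3.92, a difference of -1.01 from Red1-FTP and -2.33 from Red5-FTP. At sp40c_3341 both Mtl1-FTP arrays stood at 0.83, close to Red1-FTP at 1.08 and 1.01 and far from Red5-FTP at 2.94 and 2.47. The arrays of the other baits were closest together at sp40c_113341, at 0.74 to 0.77, against -0.07 and -0.28 with Mtl1-FTP. The windows sp40c_3021 and sp40c_100062 had differences of -0.94 and -1.20 (limma adjusted p = 0.32 for both).

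In 3 of the 10 windows the input differed by more than the IP, and in 2 of them the input difference passed. At sp40c_53401 the ratio was -2.55 and -3.66 with Mtl1-FTP and -1.66 to -1.36 otherwise (difference -1.61, limma adjusted p = 0.254), and the input was 3.17 and 2.96 in the Mtl1-FTP strain, 2.89 and 2.67 in the Red1-FTP strain and -0.05 and -0.22 in the Red5-FTP strain (difference 1.74, limma adjusted p = 0.00175). Only the Red5-FTP input was low there, whereas the ratio differed by -1.59 from Red1-FTP and by -1.63 from Red5-FTP. The input difference thus did not follow the ratio in this window. At sp40c_102202 the ratio difference was -1.44 and the input difference 1.34 (limma adjusted p = 0.0217), with the IP differing by 0.05. At sp40c_98362 the ratio differed by -1.09 (limma adjusted p = 0.265) and the IP by 0.01, while the input differed by 0.96 (limma adjusted p = 0.0571). In both sp40c_102202 and sp40c_98362 the IP values thus hardly differed and the ratio difference lay in the input. At sp40c_102202, however, the input was well above background in 9 of 20 Mtl1-FTP spots and 2 of 40 others, and the IP in 7 of 20 and 15 of 40. Most signals compared in that window were therefore near background. At sp40c_98362 the input was well above background in 12 of 20 Mtl1-FTP spots and 15 of 40 others, and the IP in 15 of 20 and 29 of 40. Most inputs of the other baits were thus dim there too, and neither the ratio nor the input difference passed.

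Across all windows the inputs and the IPs were also compared between strains. The input differed in 38 windows, 11 (0.0748%) higher and 27 (0.184%) lower in the Mtl1-FTP strain. At an unadjusted p under 0.05 the input was higher in 257 (1.75%) and lower in 1710 (11.6%). The IP was higher in 455 (3.1%) and lower in 594 (4.04%) at this level. None of the 38 was among the 7 windows called in the ratio, which lists this short among 14700 windows would mostly give by themselves. The IP differed in 13 windows, 10 (0.068%) higher and 3 (0.0204%) lower. Of the 7 windows called in the ratio, 6 were among these 13, the exception being sp40c_125942 (IP difference 2.34, limma adjusted p = 0.058). All 3 windows with a lower IP had a lower input as well: at sp40c_2602 the IP differed by -3.13 and the input by -3.01, and the ratio by -0.27. The Mtl1-FTP signals there were mostly dim, with 7 of 20 input and 1 of 20 IP spots well above background.

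The windows were then grouped by where input was detected. Transcribed windows had input well above background on all 6 arrays in at least 80% of their probes, opposite windows in at most 20% but with a transcribed partner strand, quiet windows on neither strand, and the rest were mixed. The mean log2 ratio of the 3777 transcribed windows was 0.03 and -0.27 with Mtl1-FTP, -0.15 and 0.04 with Red1-FTP, and -0.33 and -0.03 with Red5-FTP. In the 2891 opposite windows it was 0.51 and 0.21, 0.55 and 0.84, and 0.25 and 0.46 in the same order, and in the 1966 quiet windows 0.54 and 0.62, 0.77 and 0.42, and 0.71 and 0.43. The Mtl1-FTP arrays overlapped the others in transcribed and quiet windows, and in opposite windows the lower Mtl1-FTP array lay below all others. By their definition, opposite and quiet windows had few probes with input well above background, so their ratios rest on dim inputs.

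The difference, Mtl1-FTP minus the others, was 0.00 in transcribed windows (exact two-sided permutation p = 1 and 1 adjusted over 4 classes), -0.16 in opposite windows (exact p = 0.533, adjusted 1), 0.00 in quiet windows (exact p = 1, adjusted 1) and -0.01 in mixed windows (exact p = 0.933, adjusted 1). With 2 arrays against 4 the smallest p this test can give is 0.133. Opposite windows with both Mtl1-FTP arrays above all others made up 2.11%, and those with both below 9.27%, against 7.9 and 7.06% of all windows. In quiet windows the shares were 10.8 and 6.61%, in mixed windows 10.8 and 6.78%, and in transcribed windows 6.2 and 6.06%. Windows share arrays, so these shares carry no test, and the classes were built from the inputs of the same arrays.

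Whether the difference depended on the level of enrichment was examined by ranking windows on Red1-FTP and Red5-FTP arrays of the other replicate number. In replicate 1 Mtl1-FTP exceeded the others by 0.42 in the lowest decile of windows, and the difference fell to -0.14 in the highest. In replicate 2 it ran the other way, from -0.55 in the lowest decile to 0.10 in the highest. The difference along the range of ratios thus ran in opposite directions in the 2 replicate numbers, and both sides of it moved. In the lowest decile the other baits averaged -0.91 in replicate 1 and -0.52 in replicate 2, and Mtl1-FTP -0.49 and -1.08. Same-numbered arrays were subtracted here, although the numbers were not taken to pair the arrays. Slide 3 held only the second Mtl1-FTP array, so slide and bait cannot be told apart there.

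**Figure D5:**
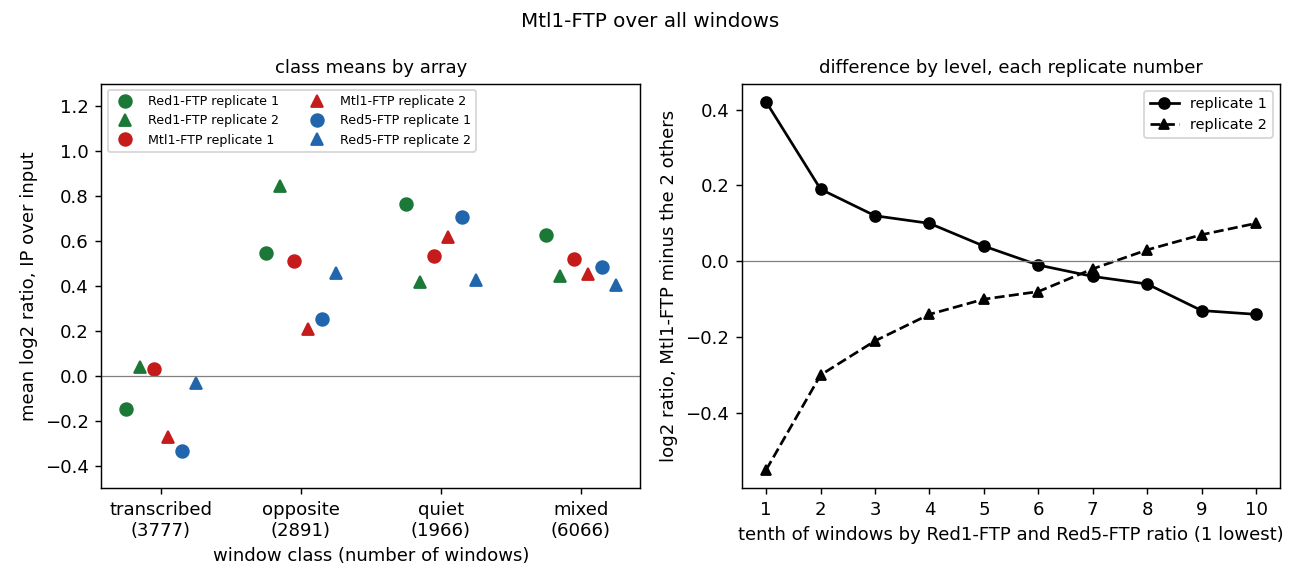
The left panel gives the mean log2 ratio of IP over input (y axis) of each array in the 4 window classes (x axis). The right panel gives the log2 ratio of Mtl1-FTP minus the mean of Red1-FTP and Red5-FTP (y axis) in deciles of windows ranked by the other baits (x axis), which falls from 0.42 to -0.14 in replicate 1 and rises from -0.55 to 0.10 in replicate 2.

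In the sparsely tiled section no window passed. Of 2706 windows, 0 were higher and 0 lower in limma, 47 (1.74%) were higher and 83 (3.07%) lower at an unadjusted p under 0.05, and the smallest adjusted p was 0.278. Both Mtl1-FTP arrays lay above all others in 154 windows (5.69%) and below in 200 (7.39%), by over 1 in 0 in either direction.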

How the data were processed

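For each array the authors deposited the spot table of Agilent Feature Extraction 10.7.3.1, with 2 biological replicates per bait. Its processed signals are deposited intensities, which that software corrected for background and spatial trend and dye-normalized by lowess. Deposited log ratios are in log10 (red over green), each with a p-value of the authors' error model, and 0 or 1 flags mark spots well above background. The authors' value table holds log2 enrichments, with 0 in place of any whose p-value was at least 0.05 (53.9 to 63.8% of probes per array). Its other values differed by at most 1.31e-06 from the scanner values.

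Log2 of processed Cy5 over processed Cy3 was centred on each array's median over non-control spots, leaving out 2 to 9 outlier tile spots per array. Windows needed at least 5 of 10 values on each array. A means model by bait was fitted with limma 3.58.1 in R 4.3.3 over all windows, with empirical Bayes moderation and Benjamini-Hochberg adjustment over all of them. IP and input signals were centred alike and fitted in the same way. Class means were compared by exact permutation over the 15 assignments of 2 arrays among 6. The fits were tested on simulated data with independent noise on each array. That simulation left out the sharing of slides, within which the windows correlated at 0.318. Array data give no counts, and the number of arrays limits the precision.

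Named are windows past an adjusted p of 0.05, the 10 windows of smallest p in each direction whose Mtl1-FTP arrays lie outside the range of the others, and runs of at least 5 probes over 1 log2 unit outside it. The comparison, the lists and the tests were chosen with earlier results of these data known. Alternatives covered centring, background correction, dim probes, the log ratio and value table, window size and position, variance moderation, slide and replicate blocks, and leaving out each array. Groups come from the labels.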

Additional observations from a re-analysis of the deposited data

Results flagged for a closer look

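In 7 windows the enrichment of IP over input with Mtl1-FTP was unlike that with Red1-FTP and Red5-FTP, as tested by limma's contrast of baits. The log2 differences were 4.37 at sp40c_82801, 5.02 at sp40c_82821, 4.49 at sp40c_82781, 2.90 at sp40c_82761, 2.66 at sp40c_82841, 2.78 at sp40c_82782 and 2.27 at sp40c_125942, each higher on 2 of 2 Mtl1-FTP arrays than on all 4 others. With 2 arrays per bait, no bait was tested for a single outlying array.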

How the results depend on the processing

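All 20 named windows kept their direction under every alternative that gave a value, 370 values in 19 settings. Part of this was fixed by the choice of windows. Both Mtl1-FTP arrays lie outside the range of the others in each, so leaving out an array cannot reverse the direction. The replicate block and the variance moderation leave the difference itself unchanged. Windows higher with Mtl1-FTP numbered 7, and 3 with signals before dye normalization or floored signals, 4 with normexp and loess, 0 with the value table, 16 in windows of 5 probes, 24 with a variance trend and robust moderation, and 0 to 9 with an array left out (0 without either Mtl1-FTP array). The slide as a fixed block gave 765 higher and 509 lower, a fit that leaves 1 degree of freedom for the spread and rests Mtl1-FTP on slide 1 alone. Windows lower numbered 0 to 1 with an array left out (1 without Red1-FTP replicate 2). Single probes numbered 0 higher and 0 lower, against 136 and 8 with normexp and 63 and 1 with dim input probes left out, and 0 to 25 higher and 0 lower with an array left out (25 without Red1-FTP replicate 2). Windows above by over 1 numbered 29, against 8 with normexp with or without loess, 11 with floored signals, 78 in windows of 5 and 7 in windows of 20 probes, and 32 to 59 with an array left out (59 without Mtl1-FTP replicate 1). Windows below by over 1 numbered 0, against 18 before dye normalization, 3 in windows of 5, 1 in windows of 20, 4 with window medians, 1 in shifted windows and 0 to 15 with an array left out (15 without Mtl1-FTP replicate 1, 10 without Red1-FTP replicate 2, 8 without Red5-FTP replicate 1). Runs above numbered 9, against 3 with normexp, 4 with normexp and loess, 5 with dim probes left out or floored signals, and 10 to 27 with an array left out (27 and 15 without Mtl1-FTP replicate 1 and 2). Runs below numbered 0, against 1 with the value table and 0 to 6 with an array left out (6 without Mtl1-FTP replicate 1). Differing input windows numbered 38, against 64 with the slide as a random block, 10 after quantile normalization and 12 to 305 with an array left out (the most without Mtl1-FTP replicate 1, and 73 without that of Red5-FTP, 12 and 19 without Red1-FTP replicate 1 and 2). Differing IP windows numbered 13, and 5 to 50 with an array left out (50 without Red1-FTP replicate 2, 5 and 6 without the Mtl1-FTP arrays, 8 without the first Red5-FTP array). The cause of these changes was not tested. Class means shifted by up to 0.15 with an array left out, and dim probes left out gave no value for opposite windows. With normexp the difference of opposite windows was 0.

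With the replicate number as a block, 7 windows were higher and 0 lower in the ratio, 126 differed in the input and 18 in the IP. Deviations of same-numbered arrays correlated at -0.54 (Red1-FTP and Mtl1-FTP), -0.55 (Red5-FTP and Mtl1-FTP) and 0.67 (Red1-FTP and Red5-FTP), so the numbers were not taken to pair the arrays.

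Of the 7 windows called, sp40c_82801 and sp40c_82781 passed in 16 of 19 alternatives, sp40c_82821 in 15, sp40c_82761 in 14, sp40c_82841 in 12, sp40c_82782 in 12 of 18 and sp40c_125942 in 9 of 19. The difference of sp40c_82782 was 0.99 with normexp and loess. Low signals limit the opposite strand, where inputs rarely rose above background.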

Other observations

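Total RNA of the Mtl1-FTP strain was lower in a group of windows that the comparison of ratios does not show. Of the 38 windows whose input differed, 14 lay between sp40c_2521 and sp40c_3521, on both strands, among 101 windows there, and all 14 were lower in the Mtl1-FTP strain. Other windows between them were not lower, such as sp40c_3021 with an input difference of 0.28 (limma adjusted p = 0.54), and the median input difference of the 101 was -0.35, against -0.18 over all windows. The 14 windows were lower, with input differences of -3.01 to -1.14. The IP differences in the same windows were -3.13 to -1.22 and the ratio differences -0.64 to 0.20, with a smallest limma adjusted p of 0.741 in the ratio. Mtl1-FTP spots well above background ranged from 2 of 20 (input) and 0 of 20 (IP) at sp40c_3442 to 18 and 17 of 20 at sp40c_3302. Where most of these spots were dim, the sizes of the differences rest on signals near background. At sp40c_2602 the input was -1.82 and -0.40 in the Mtl1-FTP strain, 2.10 and 1.11 in the Red1-FTP strain and 2.45 and 1.93 in the Red5-FTP strain. Elsewhere the Red5-FTP strain stood apart: at sp40c_53462 the input was 3.66 and 3.30 in the Mtl1-FTP strain and 2.79 and 3.39 in the Red1-FTP strain, against -0.12 and 0.50 in the Red5-FTP strain, and the IP was 2.57 and 2.59, 1.87 and 2.40, and -1.30 and -1.28.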
